A study of Mus musculus with 8 samples.

Results

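The comparison described here is that of liver from KKAy mice with liver from C57BL/6J mice at 4 weeks of age, and its members are the 4 arrays whose titles name those strains and that age, out of 8 arrays in the series. There were 2 KKAy arrays, labelled with the disease state diabetes, and 2 C57BL/6J arrays, labelled normal; the other 4 arrays hold the same strains at 11 weeks. All mice were kept on chow with a 12 h light and dark cycle and were fasted overnight for 13.5 h, and 0.5 µg of liver RNA was labelled with Cy3 for one-colour Agilent arrays. KKAy is the KK strain carrying the yellow allele of agouti, so the strains differ in their whole genetic background as well as at that allele. No label says whether the arrays of a strain hold separate animals, so the p-values rest on the spread between arrays of a group alone, and that spread may be technical. It was estimated from all 8 arrays of the series, those at 11 weeks included. The 4 arrays lay on 1 slide, C57BL/6J in the first 2 positions and KKAy in the next 2, so that strain and slide position cannot be told apart.

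In the yellow allele a deletion joins the agouti gene to the promoter of its neighbour Raly, and agouti protein, normally made in skin, is then made in many tissues. There it blocks melanocortin receptors, and mice that carry the allele overeat, gain weight and become insulin resistant as they mature. The liver answers insulin and feeding by taking up glucose, building fatty acids and triglyceride, and shutting down glucose release, while a fast reverses these programmes. It is also a tissue of resident macrophages, called Kupffer cells, and of sinusoidal endothelium, whose RNA is part of every whole-liver sample.

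Levels are given as log2 signal relative to the 75th percentile of the array's own probes, so a gene at 0 is as bright as that percentile, and a gene is represented by its brightest probe. A strain difference is the KKAy mean minus the C57BL/6J mean (n = 2 arrays each) and is called where its Benjamini-Hochberg adjusted p from limma, fitted across all genes, was under 0.05 across the 17047 genes tested. By that rule 2626 genes, or 15.4% of those tested, were called, 1093 of them (6.41%) higher and 1533 (8.99%) lower in KKAy. The 2 arrays of one strain both lay above the 2 of the other for 8285 genes (48.6%). A gene that was not called is not thereby shown to be equal in the strains. Adding the replicate number as a term to the fit gave 7474 called genes, all 2626 among them. At least a 2-fold difference was reached by 1372 called genes (8.05%), at least 4-fold by 172 higher and 233 lower genes, and at least 16-fold by 33 higher and 45 lower genes. The balance of directions depends on the scaling: 41.6% of the called genes were higher with the 75th percentile, 54.1% with the array median and 75.9% with the spike-in controls, with the all-gene median at 0.01 in the first case and 0.36 in the last. Of 815 called genes with a second measured probe, that probe moved in the same direction for 699 and was itself called in the same direction for 381, while for 21 it was called in the opposite one. Leaving out C57BL/6J array 1 or 2 left 1358 or 1317 called genes and leaving out KKAy array 1 or 2 left 1465 or 1385, so that each of the 4 arrays bears on the counts; the lone array of a strain is then assumed to vary like the other groups.

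Array quality was similar in the 2 strains. The 75th percentile signal was 1242 and 701 on the C57BL/6J arrays and 911 and 633 on the KKAy arrays, and 56.3% to 66.7% of probes were well above background. That share was higher on each C57BL/6J array than on the KKAy array of the same number. Arrays of a strain correlated at 0.992 or more over measured genes and arrays of different strains at 0.965 to 0.973. All 17 measured hepatocyte markers were well above background on all 4 arrays, and albumin (Alb, 8.67 and 9.30 in C57BL/6J, 9.07 and 9.41 in KKAy) and the hepatocyte regulator Hnf4a (4.27 and 4.15 against 4.28 and 4.22) overlapped between the strains, with adjusted p of 0.621 and 0.893. Of the 17 markers 2 were called higher and 1 lower, beside 6.41% and 8.99% of all genes. No label gives the animals' sex; on every array of the series the 4 Xist probes were not well above background, and the Y-linked Ddx3y, Eif2s3y and Kdm5d were.

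At the mutated locus the agouti gene (symbol a) was at -8.39 and -7.22 on the C57BL/6J arrays, neither well above background, and at 2.92 and 3.35 on the KKAy arrays, a level at least 494-fold higher. Raly, the neighbour that lends its promoter, was at 3.14 and 3.37 in C57BL/6J and 2.26 and 2.52 in KKAy and was thus lower by 0.86 (SE 0.14, adjusted p = 0.0106). Eif2s2, a translation initiation factor subunit gene that lies between them, was lower by a similar amount, from 4.24 and 4.52 to 3.28 and 3.61 (difference -0.93, SE 0.20, adjusted p = 0.0281). Of the 16 measured genes around the locus, 2 were called higher and 4 lower, beside 6.41% and 8.99% of all genes. The median of all 16 was 0.02 beside a median of 0.01 over all genes. With spike-in scaling 4 were called higher and 0 lower, so the lower calls, with Raly and Eif2s2 among them, depend on the scaling. Most of the lower calls were also lost when any 1 array was left out.

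Of the 19 measured genes of glucose entry and glycolysis 2 were called higher and 2 lower, beside 15.4% of all genes called. Slc2a2, the main glucose transporter of hepatocytes, was higher by 0.48 (SE 0.10, adjusted p = 0.0223), and its second probe gave 0.53. Liver pyruvate kinase (Pklr) was at 0.19 and 0.02 against 0.64 and 0.38 and was not called (difference 0.40, SE 0.17, adjusted p = 0.200). Hk3, a hexokinase best known from blood cells, was lower, from -0.40 and -0.29 to -2.14 and -1.96.

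On the side of glucose release, 3 of the 12 measured gluconeogenesis genes were called lower and none higher, beside 8.99% and 6.41% of all genes. Glucose-6-phosphatase (G6pc), which frees glucose for export, was at 6.45 and 6.64 in C57BL/6J and at 6.02 on both KKAy arrays, a modest difference of -0.53 (SE 0.11, adjusted p = 0.0240). Ppargc1a, the fasting-induced coactivator of this programme, was at 1.86 and 2.17 against 0.22 and 0.68 (difference -1.57, SE 0.31, adjusted p = 0.0229). Got1, the cytosolic aspartate aminotransferase, was lower by 0.48 (SE 0.10). None of the 3 calls was left when any 1 of the 4 arrays was left out, and under spike-in scaling 1 was left. In glycogen metabolism, Ppp1r3g, a glycogen-targeting subunit of protein phosphatase 1, was lower by 1.53 (SE 0.25, adjusted p = 0.0111), while glycogen synthase Gys2 and phosphorylase Pygl, at 0.20 and -0.18, were not called.

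Among the 24 measured genes of lipogenesis and triglyceride assembly, 4 were called higher and 4 lower, beside 6.41% and 8.99% of all genes. With spike-in scaling 6 were called higher and 2 lower, so the balance of directions depends on the scaling. The replicate number as a term in the fit gave 8 higher and 10 lower. Thrsp, a lipogenic protein under thyroid hormone and carbohydrate control, was at 1.94 and 2.00 in C57BL/6J and at 3.29 and 3.37 in KKAy (difference 1.36, SE 0.10, adjusted p = 0.000702). The pathway's first listed genes, fatty acid synthase (Fasn, 0.33, SE 0.21) and its regulator Srebf1 (0.35, SE 0.11, adjusted p = 0.0815), were not called. Stearoyl-CoA desaturase (Scd1) was lower in KKAy, from 6.58 and 6.46 to 5.70 and 5.50 (difference -0.92, SE 0.14, adjusted p = 0.00788). The largest member was Lpin1, the phosphatidate phosphatase that also acts as a coactivator of fasting genes, at 4.87 and 4.99 against 2.15 and 2.08, which is 7.05-fold lower (log2 -2.82, SE 0.10, adjusted p = 0.000114). Its 3 other probes gave -4.07, -3.48 and -3.36, so every probe of the gene placed it far below C57BL/6J.

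Of 21 measured lipid droplet and fat uptake genes 2 were called higher and 1 lower, a share near the 15.4% of all genes. The VLDL receptor Vldlr was at -0.15 and 0.09 against 0.89 and 1.24 (difference 1.1, SE 0.20), Fitm2, an endoplasmic reticulum protein of droplet formation, was higher by 0.71 (SE 0.09), and its relative Fitm1 was lower by 0.80 (SE 0.12). The coat protein Plin2 (-0.04, SE 0.28) and Cidec, which fuses droplets (0.58, SE 0.21), were not called. Of 34 genes of fatty acid oxidation and ketogenesis, 3 were called higher and 1 lower, again near the share of all genes. Fgf21, the fasting hormone made by the liver, was at 1.94 and 2.04 in C57BL/6J and at 3.09 and 3.34 in KKAy (difference 1.22, SE 0.16, adjusted p = 0.00556), whereas Pdk4, which spares glucose in fasting, was at 2.44 and 2.82 against 1.31 and 1.72 (difference -1.11, SE 0.27, adjusted p = 0.0428). The regulator Ppara (-0.18) and the rate-limiting carnitine palmitoyltransferase Cpt1a (-0.57, SE 0.20, adjusted p = 0.127) were not called. In the respiratory chain limma called no gene of 58, and 1 had an unadjusted p under 0.05. With spike-in scaling 1 was called, and with the replicate number as a term 3 were called higher and 6 lower. The median of the 58 was 0.03.

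Of 27 measured genes of cholesterol synthesis and uptake 5 were called higher and 3 lower, beside 6.41% and 8.99% of all genes, with a median of 0.31. Mvd, a mevalonate pathway enzyme, was higher by 0.61 (SE 0.12), while the isomerase Idi1 was lower by 0.66 (SE 0.11, adjusted p = 0.0140). The regulator Srebf2 (0.48, SE 0.18) was not called. Between 0 and 1 of the higher calls were left when any 1 of the arrays was left out, and spike-in scaling gave 11. Among 24 genes of cholesterol export and lipoproteins only Apoa4 was called, an apolipoprotein of triglyceride-rich particles, which was at 5.36 and 5.43 in C57BL/6J and at 6.92 and 6.89 in KKAy, a 2.85-fold difference (log2 1.51, SE 0.12, adjusted p = 0.000987). With spike-in scaling 4 genes of this list were called higher.

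Bile acid genes were divided, with 4 of 24 called higher and 5 lower, beside 6.41% and 8.99% of all genes. With spike-in scaling 5 were called higher and 1 lower, so that the balance of directions depends on the scaling. The rate-limiting enzyme of bile acid synthesis, Cyp7a1, was at 3.41 and 3.47 against 2.94 and 2.88 (difference -0.52, SE 0.10, adjusted p = 0.0180). Nr0b2, the repressor of Cyp7a1 that is switched on by bile acids, was lower in the same samples, from 0.08 and -0.12 to -1.06 and -1.09 (difference -1.05, SE 0.13, adjusted p = 0.00458). The basolateral efflux pump Abcc4 was at -0.92 and -0.60 in C57BL/6J and at 0.56 and 0.90 in KKAy (difference 1.49, SE 0.23). Slco1a1, an organic anion uptake carrier, was higher by 0.63 (SE 0.09) by its brightest probe, while its second probe gave -0.03.

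**Figure D1:**
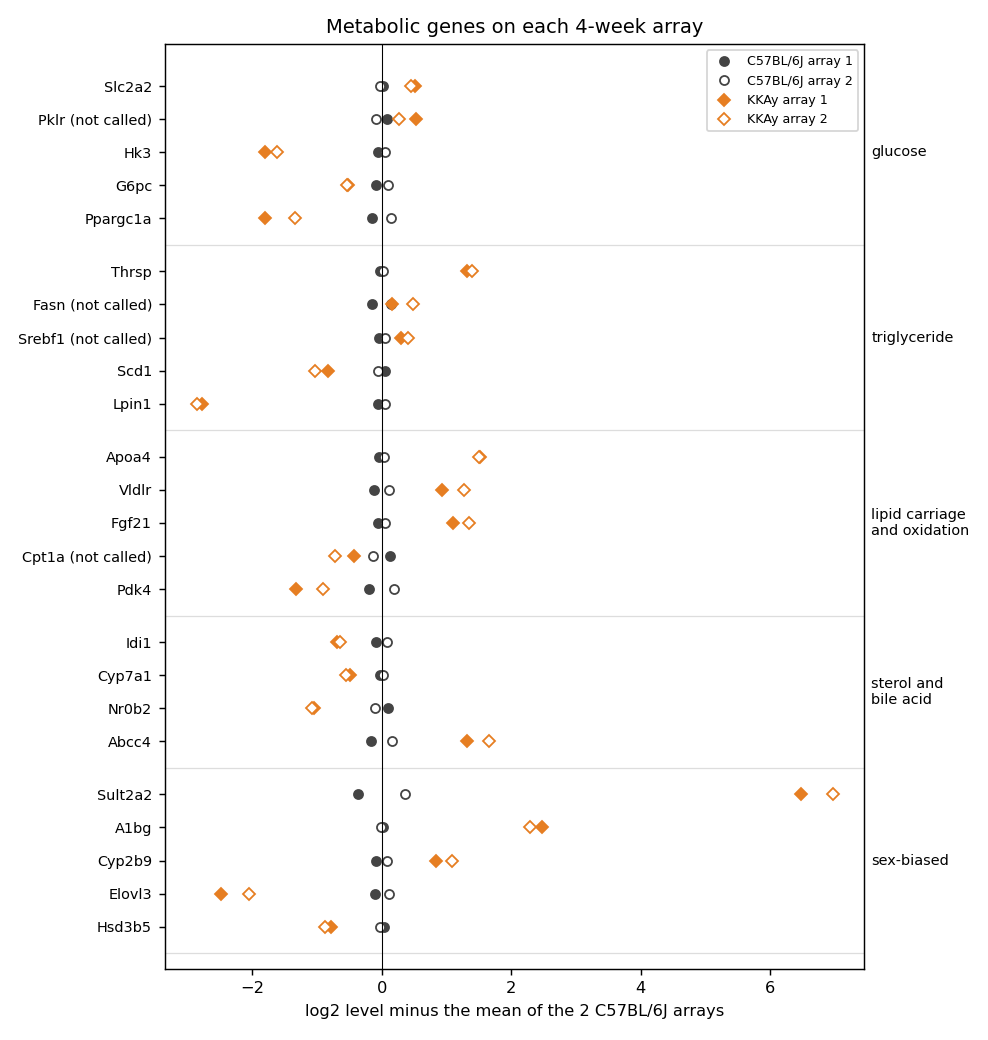
Each row is a gene and each marker 1 array, placed by its log2 level minus the mean of the 2 C57BL/6J arrays; circles are C57BL/6J, diamonds KKAy, filled markers array 1 and open markers array 2. In every called gene shown the 2 diamonds lie on the same side of both circles; Sult2a2 is farthest to the right and Lpin1 farthest to the left.

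Insulin and growth hormone pathway genes were called in both directions, which for the insulin list depended on the scaling. Of 22 measured insulin signalling genes 3 were called higher and 3 lower, beside 6.41% and 8.99% of all genes. With spike-in scaling the insulin list gave 5 higher and 0 lower calls, and the growth hormone and IGF list gave 6 and 2. The receptor itself (Insr, 0.02, SE 0.32) and the docking protein Irs1 (-0.07, SE 0.30) were not called, whereas Pik3r1, the regulatory subunit of phosphatidylinositol 3-kinase, was at 0.27 and 0.04 against 1.14 and 1.03 (difference 0.93, SE 0.13, adjusted p = 0.00602). The forkhead factor Foxo3, a dim gene here, was higher by 1.08 (SE 0.17) and Tbc1d1, a Rab regulator of glucose transporter traffic, was lower by 1.0 (SE 0.16). In the growth hormone and IGF list 4 of 18 genes were called higher and 4 lower: Cish, a feedback inhibitor induced by growth hormone, was at 1.42 and 1.54 against 2.60 and 2.72 (difference 1.18, SE 0.13, adjusted p = 0.00278). The IGF-binding protein Igfbp2 was lower by 0.75 (SE 0.10, adjusted p = 0.00511), and the growth hormone receptor (Ghr, -0.22, SE 0.13) and Igf1 (0.15, SE 0.19) were not called. Of the secreted liver hormones, Tsku was higher by 1.17 (SE 0.12) and Angptl8, an insulin-induced inhibitor of lipoprotein lipase, by 0.66 (SE 0.11), and 3 of 22 were called higher and 1 lower.

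Some liver genes differ in level between the sexes under the rhythm of growth hormone. Of 29 measured female-biased genes 8 were called higher and 4 lower, with a median of 0.60, and of 26 male-biased genes 2 were called higher and 6 lower, with a median of -0.24. The shares of all genes were 6.41% higher and 8.99% lower. Sult2a2, a hydroxysteroid sulfotransferase, was at -3.35 and -2.62 in C57BL/6J and at 3.48 and 3.97 in KKAy, a 105-fold difference (log2 6.72, SE 0.77, adjusted p = 0.00328); its dimmer probe gave 3.75, and sulfotransferases of this family are near-identical, so which copy was measured is uncertain. A1bg, a plasma glycoprotein, was higher by 2.38 (SE 0.13, adjusted p = 0.000326) and the steroid hydroxylase Cyp2b9 by 0.97 (SE 0.14, adjusted p = 0.00824). Against the lean of its list, the steroidogenic enzyme Cyp17a1 was at 3.46 and 3.39 against 0.59 and 0.61 and was thus 7.08-fold lower (log2 -2.82, SE 0.20). On the male-biased side the fatty acid elongase Elovl3 was at 2.50 and 2.71 in C57BL/6J and at 0.12 and 0.55 in KKAy (difference -2.27, SE 0.22, adjusted p = 0.00196). The steroid dehydrogenase Hsd3b5 was lower by 0.83 (SE 0.11, adjusted p = 0.00612) and Cyp2u1 by 1.04 (SE 0.11), while the abundant Cyp2d9 was not called (8.06 and 8.11 against 8.04 and 8.03). Cux2, a transcription factor typical of female liver, was lower by 1.63 (SE 0.24, adjusted p = 0.00782). The Y-linked Ddx3y, Eif2s3y and Kdm5d were not called between the strains. Between 3 and 5 of the higher female-biased calls were left when any 1 array was left out.

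Of 35 measured xenobiotic cytochrome P450 genes 6 were called higher and 4 lower, beside 6.41% and 8.99% of all genes. Cyp2c38 was at -0.89 and -1.31 in C57BL/6J and at 4.59 and 4.36 in KKAy, 47.7-fold higher (log2 5.57, SE 0.22, adjusted p = 0.000144), and its other probe gave 1.88; the Cyp2c genes are close copies, so the assignment is uncertain. Cyp1b1 was higher by 2.17 (SE 0.14) and Cyp2c55 lower by 1.70 (SE 0.11), while the abundant Cyp1a2 (-0.22) and Cyp3a11 (0.24) were not called. Among 29 conjugating enzymes 4 were called higher and 2 lower: thiopurine methyltransferase (Tpmt) was at 2.38 and 2.53 against 4.60 and 4.84, 4.80-fold higher (log2 2.26, SE 0.15), and Inmt, an indole N-methyltransferase, was at 7.09 and 7.34 against 5.38 and 5.64, 3.27-fold lower (log2 -1.71, SE 0.16). Of 30 Nrf2 and antioxidant genes, Nqo1 (0.66, SE 0.13) and Gstm2 (0.87, SE 0.11) were called higher and G6pdx (-0.69, SE 0.14) lower. In amino acid breakdown 3 of 41 genes were called higher and 5 lower, with Bckdhb, a subunit of the branched-chain ketoacid dehydrogenase, higher by 1.21 (SE 0.10, adjusted p = 0.000987) and the transsulfuration enzymes Cbs and Cth lower by 1.31 (SE 0.13) and 0.66 (SE 0.10). The urea cycle enzymes Cps1 (-0.07) and Ass1 (0.02) were not called.

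Of 29 endoplasmic reticulum stress genes 1 was called higher and 3 lower, near the 15.4% of all genes called, and the lower ones included Derl3, a channel component of endoplasmic reticulum degradation, at -0.46 and -0.50 in C57BL/6J and -2.68 and -2.91 in KKAy (difference -2.32, SE 0.13, adjusted p = 0.000344). Sdf2l1, another luminal chaperone partner, was lower by 0.81 (SE 0.09) and the glutathione-cleaving Chac1 was higher by 1.08 (SE 0.19), while the chaperone Hspa5 (-0.31, SE 0.10) and the factor Ddit3 (-0.14, SE 0.16) were not called. Immediate early genes leaned lower, with 7 of 16 called lower and 2 higher, beside 8.99% and 6.41% of all genes, and a median of -0.56. Gadd45b, a stress-induced growth regulator, was at 0.98 and 1.43 against -0.96 and -0.51 (difference -1.94, SE 0.27) and the antiproliferative Btg2 was lower by 1.11 (SE 0.11), but Ier2 was higher by 0.80 (SE 0.11) and Fos and Jun, at -0.69 and -0.62, were not called. Between 2 and 4 of the lower calls were left when any 1 array was left out, and 2 with spike-in scaling. Of 21 circadian clock genes 7 were called higher and 3 lower, beside 6.41% and 8.99% of all genes, with a median of 0.51. The clock repressor gene Per3 was at -4.52 and -4.18 against -2.31 and -2.28 (difference 2.05, SE 0.19), and Noct, a rhythmic deadenylase relative, was lower by 1.46 (SE 0.11). The activators Arntl (-0.84, SE 0.27) and Clock (-0.22, SE 0.11) were not called. The labels used here do not give the hour of sampling. In the cell cycle list 3 of 41 genes were called higher and 3 lower, near the 15.4% of all genes called. The proliferation marker Mki67 (-0.05, SE 0.10) was not among them. Of 13 measured fetal and early postnatal liver genes 4 were called higher and 2 lower, and of 15 heat shock genes 1 was called higher.

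Acute phase proteins are secreted by the liver in inflammation, and the list used here also holds receptors and regulators such as Il6ra and Stat3. Of its 30 measured genes 13 were called higher in KKAy, beside 6.41% of all genes, 1 was called lower and 16 were not called. The median of the 30 was 0.64. Orm3, an orosomucoid, was at -0.32 and -0.21 in C57BL/6J and at 2.52 and 2.44 in KKAy, 6.67-fold higher (log2 2.74, SE 0.11, adjusted p = 0.000152). Serum amyloid P (Apcs) was at 2.21 and 2.47 against 4.71 and 5.07 (difference 2.55, SE 0.19, adjusted p = 0.000776), and the lipopolysaccharide-binding protein Lbp was higher by 1.46 (SE 0.15). Saa1 and Saa2, near-identical serum amyloid A genes whose probes may not separate them, were higher by 1.67 (SE 0.22) and 1.74 (SE 0.27). Between 8 and 11 of the 13 higher calls were left when any 1 array was left out. Of 35 complement and coagulation genes, also made by hepatocytes, only Hc, complement component 5, was called, at 6.46 and 7.0 against 3.92 and 4.55, 5.64-fold lower (log2 -2.50, SE 0.36, adjusted p = 0.00722), with C3 (0.25) and F2 (0.15) not called. With spike-in scaling 3 genes of that list were called higher. Hepcidin (Hamp), the iron hormone, was lower in KKAy, from 6.66 and 6.29 to 4.62 and 4.00 (difference -2.16, SE 0.32, adjusted p = 0.00847). Its copy Hamp2 was lower by 0.82 (SE 0.09) and Hjv, a co-receptor in the signal that induces hepcidin, by 0.67 (SE 0.10). Among 18 iron genes 5 were called lower and 1 higher, beside 8.99% and 6.41% of all genes. With spike-in scaling 1 iron gene was called lower and 4 higher, so the balance of directions depends on the scaling. Some of the lower calls were lost when any 1 array was left out.

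Of 40 measured interferon response genes 24 were called lower in KKAy, none higher and 16 were not called, beside 8.99% of all genes called lower, and the median of the 40 was -1.18. Irf7, the factor that amplifies interferon production, was at 1.78 and 1.72 in C57BL/6J and at -1.34 and -1.37 in KKAy, 8.61-fold lower (log2 -3.11, SE 0.12, adjusted p = 0.000144). The antiviral genes Oasl2 (0.41 and 0.49 against -1.76 and -1.64) and Ifit1 (-0.69 and -0.75 against -2.80 and -2.87) differed by -2.15 (SE 0.10) and -2.11 (SE 0.11). Between 19 and 21 of the 24 calls were left when any 1 array was left out, and 22 with spike-in scaling.

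Interferon acts on such genes through an interferon-stimulated response element, which binds interferon-activated factors, and the windows below are shown because they come from genes called lower that carry its core, picked for that match. RefSeq promoter windows (build GRCm38.p6, 250 bases before the start) were at hand for 28 of the 40 listed genes, and the core searched was 2 copies of GAAA separated by any 2 bases, on either strand, with overlapping matches counted. It was found in the window of 10 of 18 genes called lower (55.6%) and of 4 of 10 not called (40%), beside 3.46% of all 27025 genes with a window; among tested genes with a window it was in 6.89% of those called lower, 3.18% of those called higher and 3.32% of all. Capitals mark the matches, and every sequence runs 5′ to 3′ along the gene's own strand.
Isg15: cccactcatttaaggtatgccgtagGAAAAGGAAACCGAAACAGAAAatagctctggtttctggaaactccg
Ifit1: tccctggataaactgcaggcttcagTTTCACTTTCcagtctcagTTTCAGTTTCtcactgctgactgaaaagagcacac
Ifit3: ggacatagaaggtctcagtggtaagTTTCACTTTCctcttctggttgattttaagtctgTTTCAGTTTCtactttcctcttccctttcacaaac
Oas3: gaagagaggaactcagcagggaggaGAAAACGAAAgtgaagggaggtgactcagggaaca
Gbp2: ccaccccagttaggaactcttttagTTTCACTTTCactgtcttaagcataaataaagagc
Cxcl10: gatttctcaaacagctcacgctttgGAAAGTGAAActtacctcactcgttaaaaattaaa
These are chr4:156200850-156200921 (minus strand), chr19:34640760-34640838 (plus), chr19:34583348-34583441 (plus), chr5:120777700-120777759 (minus), chr3:142620579-142620638 (plus) and chr5:92349068-92349127 (minus). Isg15 holds 3 overlapping matches that begin 78 bases before the start, and the others hold 1 or 2. The strain differences (log2) were -1.72 for Isg15, -2.11 for Ifit1, -1.33 for Ifit3, -1.15 for Oas3, -2.11 for Gbp2 and -1.55 for Cxcl10. A match describes letters in this window and is neither a measured site nor a cause.

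Of 22 antigen presentation genes 11 were called lower, beside 8.99% of all genes, none higher and 11 were not called, with a median of -0.51. The class II genes, whose products show peptides to helper T cells, moved by nearly the same amount: H2-Ab1 was at 4.46 and 4.35 against 2.45 and 2.44 (difference -1.96, SE 0.10, adjusted p = 0.000261), H2-Aa at 1.16 and 1.32 against -0.67 and -0.53 (-1.85, SE 0.12), and H2-Eb1 at 2.31 and 2.32 against 0.56 and 0.59 (-1.74, SE 0.10). Haplotypes of these genes differ between mouse strains, and the probes were designed on 1 sequence each. Between 5 and 6 of the 11 calls were left when any 1 array was left out, and 6 with spike-in scaling. Class II promoters share a Y box, CTGATTGG, a site of the factor NF-Y, which is shown here because these genes moved together. It was found on either strand in 5 of 9 list genes called lower that have a window, 2 of 9 not called and 4.43% of all genes with a window. Among tested genes with a window it was in 5.76% of those called lower, 6.49% of those called higher and 5.67% of all. Genes called lower across the array thus held it about as often as the others.
H2-Aa: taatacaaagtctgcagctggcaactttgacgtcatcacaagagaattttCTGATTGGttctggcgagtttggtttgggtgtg
H2-Eb1: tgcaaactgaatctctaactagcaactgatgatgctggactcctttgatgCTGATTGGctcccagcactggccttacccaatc
They lie at chr17:34287842-34287924 (minus strand) and chr17:34305755-34305837 (plus), with the box 51 and 62 bases before the start.

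Of 20 measured chemokine and receptor genes 11 were called lower, 2 were called higher and 7 were not called, beside 8.99% of all genes called lower and 6.41% higher. The interferon-induced T-cell attractant Cxcl9 was at 1.60 and 1.78 against -0.37 and -0.21 (difference -1.98, SE 0.13, adjusted p = 0.000559), the monocyte attractant Ccl2 was lower by 1.02 (SE 0.17) and its receptor Ccr2 by 1.52 (SE 0.16). The genes called higher were Cxcl13, a B cell attractant, by 1.02 (SE 0.14), and the neutrophil attractant Cxcl1, at -4.29 and -4.09 in C57BL/6J and -2.40 and -2.14 in KKAy (difference 1.92, SE 0.18, adjusted p = 0.00168). Between 5 and 8 of the lower calls were left when any 1 array was left out, and 5 with spike-in scaling.

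Of 26 measured Kupffer cell and macrophage markers 19 were called lower and none higher, beside 8.99% and 6.41% of all genes, with a median of -1.06. The Kupffer lectin Clec4f was at 4.44 and 4.66 in C57BL/6J and at 3.22 and 3.18 in KKAy (difference -1.35, SE 0.12, adjusted p = 0.00129), Mpeg1 was lower by 1.46 (SE 0.10), Tyrobp by 1.20 (SE 0.09) and Adgre1 by 1.41 (SE 0.35, adjusted p = 0.0486). Of 27 lymphocyte and natural killer markers 17 were called lower and none higher, beside the same shares of all genes, with a median of -0.83. The killer cell protease Gzma was at -1.31 and -0.99 against -6.38 and -5.95, where it was not well above background, and was at least 17.2-fold higher in C57BL/6J, Gzmb was lower by 1.96 (SE 0.10) and Klrd1 by 1.72 (SE 0.16). The T cell receptor subunit Cd3e was not among them (-2.09 and -1.78 against -2.19 and -1.94), nor was the B cell gene Cd79a (-0.71, SE 0.31). Summed over its list in units of the 75th percentile signal, the macrophage markers were at 245 and 295 in C57BL/6J and 122 and 150 in KKAy, and the lymphocyte and natural killer markers at 24.1 and 24.5 against 14.3 and 14.5. No marker of either list was below background on all 4 arrays. In whole liver fewer cells of a type and less RNA per cell cannot be told apart, and the part of these cell markers in the lower interferon, class II and chemokine levels was not tested. Between 11 and 13 of the macrophage calls and 8 and 9 of the lymphocyte calls were left when any 1 array was left out, and 13 and 8 with spike-in scaling.

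**Figure D2:**
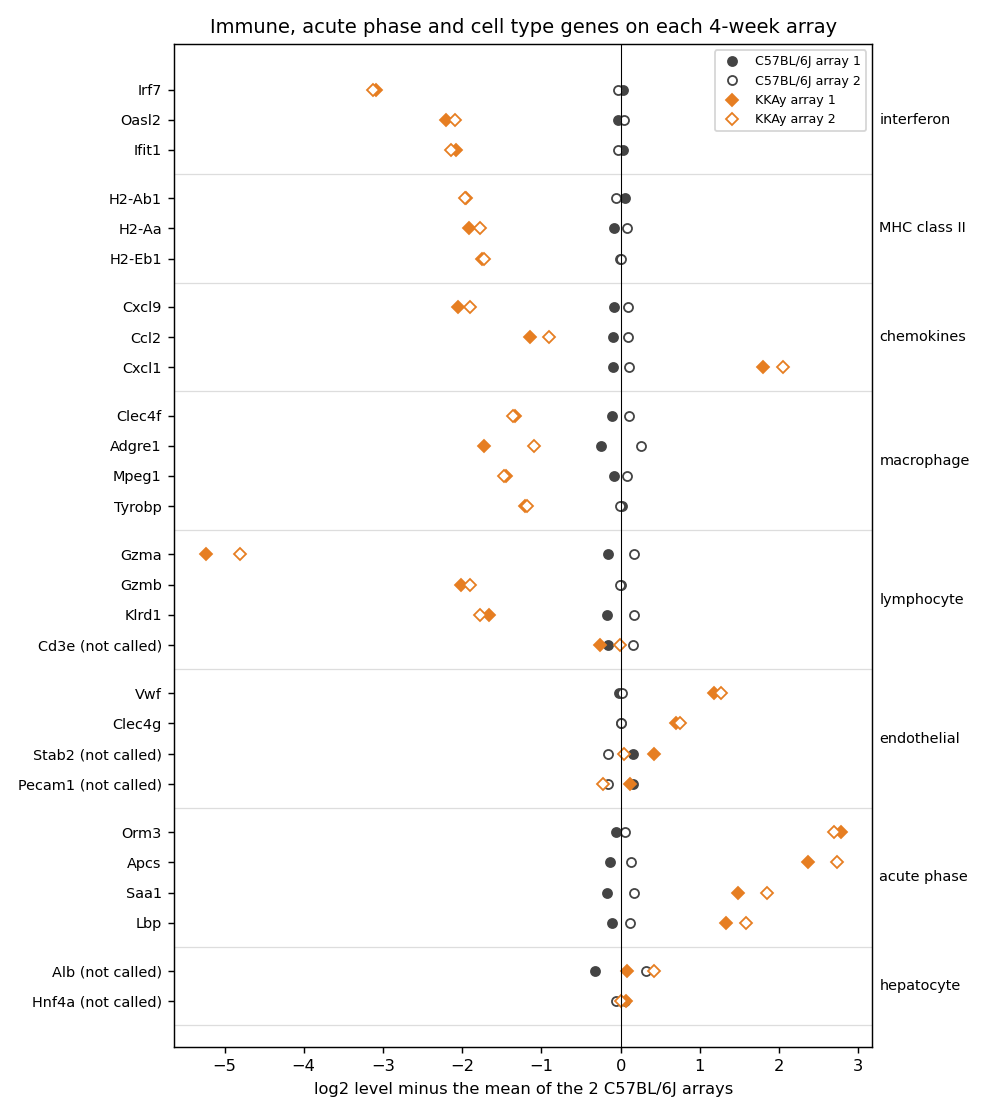
Each row is a gene and each marker 1 array, placed by its log2 level minus the mean of the 2 C57BL/6J arrays; circles are C57BL/6J, diamonds KKAy, filled markers array 1 and open markers array 2. The interferon, class II, macrophage and killer cell genes that were called lie to the left, the acute phase genes and Cxcl1 to the right, and Alb, Hnf4a and Cd3e at the C57BL/6J level.

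Of 24 endothelial markers 2 were called higher and 1 lower: von Willebrand factor (Vwf) was at 0.36 and 0.41 against 1.57 and 1.65 (difference 1.22, SE 0.10, adjusted p = 0.00125), the sinusoidal lectin Clec4g was higher by 0.72 (SE 0.09) by its brightest probe and lower by its dim second (-0.66, not called), and the pan-endothelial Cdh5 was lower by 0.53 (SE 0.12). With spike-in scaling 6 endothelial markers were called higher. For this list and the cell type lists that follow, the shares of all genes were 6.41% higher and 8.99% lower. Of 27 stellate cell and matrix markers 5 were called lower and none higher, among them the collagen gene Col1a1 (-0.86, SE 0.18) and the gelatinase Mmp2 (-1.03, SE 0.13), while Des (0.17) was not called. With spike-in scaling none of the 5 was called and 4 other calls were higher; between 1 and 2 lower calls were left when any 1 array was left out. Of 7 measured erythroid genes 3 were called higher and 1 lower, with a median of 0.30. Their summed level was 104 and 117 in C57BL/6J and 167 and 185 in KKAy, most of it haemoglobin alpha (Hba-a1). Hba-a1 was higher by 0.74 (SE 0.12) and the band 3 gene Slc4a1 by 1.05 (SE 0.16), but carbonic anhydrase Car1 was lower by 0.73 (SE 0.12). The part of blood in the sample was not tested. The neutrophil gene S100a8 overlapped between the strains (-2.70 and -2.41 against -2.64 and -2.60). Biliary markers were called lower in 1 of 8, Sox9 (-0.63, SE 0.10), whose second probe gave 0.10. Of 7 measured neutrophil markers 1 was called higher and 1 lower, of 3 pancreatic acinar markers 1 was called lower, and of 6 skeletal muscle markers 1, Cdh15, was called higher. Of 6 measured adipocyte markers 1 was called higher and 2 lower. Adipoq, dim on all arrays, was higher by 1.48 (SE 0.29). Car3, which hepatocytes also make, was lower by 1.5 (SE 0.14) by its brightest probe, while its second probe gave -0.38. The other lower call was Cfd, which was not well above background in KKAy.

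**Figure D3:**
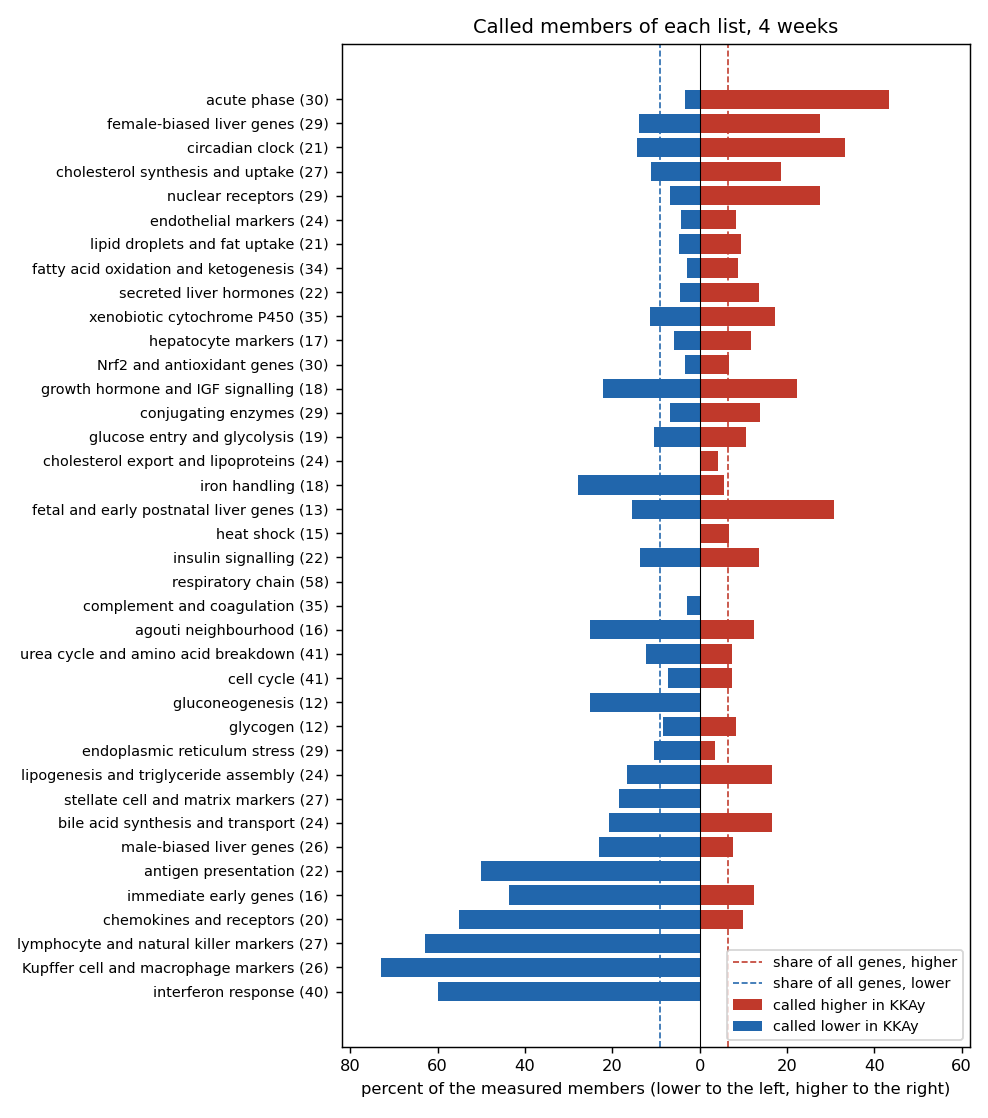
For each list of at least 10 measured genes (number in brackets) the bars give the percentage of measured members called higher (red, right) or lower (blue, left) in KKAy, with dashed lines at the shares of all tested genes (6.41% higher, 8.99% lower). Lists are ordered by their median difference, from acute phase at the top to the interferon response at the bottom; the respiratory chain has no bar.

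Nuclear receptors, the ligand-controlled factors behind many of these programmes, were called higher in 8 of 29 and lower in 2, beside 6.41% and 8.99% of all genes, with a median of 0.30. Thyroid hormone receptor beta (Thrb) was at 0.11 and -0.02 in C57BL/6J and at 1.28 on both KKAy arrays (difference 1.23, SE 0.10, adjusted p = 0.00103), and Nr5a2, which drives bile acid and cholesterol genes with Nr0b2 as its repressor, was at 1.41 and 1.72 against 3.24 and 3.91 (difference 2.01, SE 0.35, adjusted p = 0.0142). The bile acid receptor Nr1h4 was higher by 0.47 (SE 0.11, adjusted p = 0.0390). Foxa3, a hepatocyte forkhead factor, was higher by 0.85 (SE 0.10, adjusted p = 0.00326). Between 3 and 5 of the higher nuclear receptor calls were left when any 1 array was left out, and spike-in scaling gave 14.

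Among the largest single differences, all 10 of the largest lower genes were not well above background on either KKAy array. Of the 10 largest higher genes 5 were below background on both C57BL/6J arrays, 1 on 1 of them and 4 on neither. Well above background on both KKAy arrays and on neither C57BL/6J array were 62 genes, 52 of them called, and the reverse pattern held for 388 genes, 183 of them called. A larger share of all probes was well above background on each C57BL/6J array than on the KKAy array of the same number. Its part in these counts was not tested, so the counts alone do not compare the strains. Second to the agouti gene among the higher genes was Cdh15, a cadherin gene of muscle cells, at -5.56 and -5.10 in C57BL/6J and 3.70 and 3.76 in KKAy (log2 9.05, SE 0.16, adjusted p = 2.28e-05). The 10 largest also included Ctse, the aspartic protease cathepsin E, at -3.71 and -3.36 in C57BL/6J and 2.47 and 2.45 in KKAy, 64.0-fold higher (log2 6.00, SE 0.14, adjusted p = 4.15e-05). Ccnb1ip1, a ubiquitin ligase of meiotic crossover, was not above background in C57BL/6J and at least 18-fold higher in KKAy, and Gstp3, a glutathione transferase with close copies, was 47.7-fold higher (log2 5.58, SE 0.42). Among the 10 largest lower genes, the oligodendrocyte factor gene Olig1 was at -0.31 and -0.57 in C57BL/6J and not above background in KKAy, at least 28.1-fold higher in C57BL/6J, and Hnf4aos, a transcript antisense to Hnf4a, was at least 23.7-fold higher. The eosinophil-associated ribonucleases Ear1 and Ear6, members of a family of near-identical genes, were at least 32.8-fold and 18.4-fold higher in C57BL/6J. For Ear6 the dimmer second probe gave a smaller log2 difference, -3.42. Of the 52 and 183 called genes, 37 and 131 were also called in the same direction at 11 weeks. All 8 arrays share the probe filter and the estimate of the spread, so this count is a description and not independent support.

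The strain difference itself changed with age for 650 genes (3.81% of those tested, interaction of strain and age, adjusted p under 0.05), and 356 of them were called at 4 weeks. For 278 of the 356 the difference was smaller at 11 weeks or had the opposite sign. Picking genes by their call at 4 weeks favours a larger difference at that age, so this count does not show that differences fade. In the opposite direction 106 were called at 11 weeks, 45 that had been higher and 61 that had been lower. Sult2a2 went from 6.72 at 4 weeks to -0.25 at 11 weeks, where it was not called. Derl3 went from -2.32 to 1.70, Hsd3b5 from -0.83 to 4.04, Apoa4 from 1.51 to -1.47, Scd1 from -0.92 to 1.48 and Car3 from -1.5 to 1.93, each called at both ages. The class II gene H2-Ab1 went from -1.96 to -0.19 and Cxcl9 from -1.98 to -0.01, and neither was called at 11 weeks. Lpin1 moved further the same way, from -2.82 to -4.81. Age goes with slide in this design, but each strain difference was taken within a slide.

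**Figure D4:**
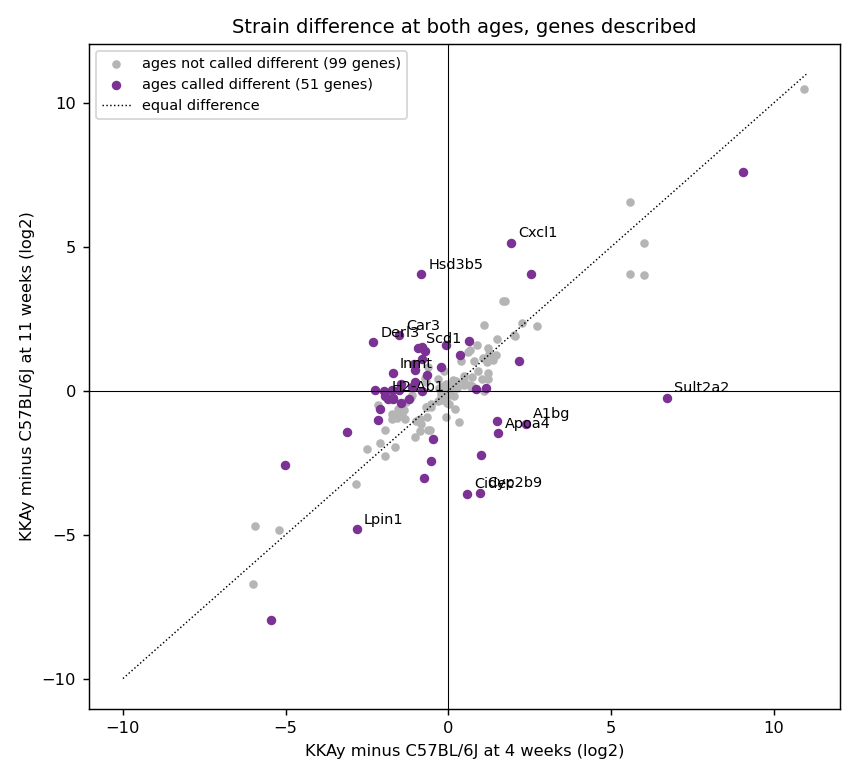
Each point is 1 of the genes described here, plotted by its strain difference (log2, KKAy minus C57BL/6J) at 4 weeks and at 11 weeks, with the dotted line marking equal differences and purple the genes whose difference changed with age by the interaction test. Sult2a2 lies farthest from the dotted line among the labelled genes, and Hnf4aos and Gzma are also off it (from -5.44 to -7.96 and from -5.02 to -2.59). Purple points in the upper left and lower right are genes whose difference had opposite signs at 4 and 11 weeks. Not all of these were called at both ages.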

How the data were processed

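Liver RNA was hybridised to one-colour Agilent arrays. Spot intensities were read by Agilent Feature Extraction 9.5.1.1, per the file headers, which subtracted background and removed spatial trends within each array. The authors' deposited value table holds log2 values equal to those processed intensities within 0.001 after 1 constant per array, with column medians of -3.96 to -3.67. What those constants are is unknown. Per the file headers, probe coordinates are those of mm8.

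Here each array's log2 processed intensity was set relative to its 75th percentile. Control spots and outlier spots were left out, and a probe was kept if, in 1 or more of the 4 groups, both arrays had it well above background. The brightest of a gene's measured probes stood for the gene. Symbols came from RefSeq (GRCm38.p6), matched by accession for 24490 probes, by symbol for 6234 and by older symbol for 2391, and 8059 kept the file's name. All 8 arrays were fitted by group with limma 3.58.1 (lmFit and eBayes, R 4.3.3), with Benjamini-Hochberg adjustment, and the fit was tested on simulated data. Groups of 2 arrays limit the precision, and an exact permutation test of 2 against 2 cannot go below a two-sided p of 0.333. Where neither array of a strain had a probe well above background, the fold is a lower bound: the bright strain's mean over the dim strain's mean floor, the floor of an array being its dimmest probe that is well above background, or the gene's own signal if higher.

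The genes named are the 10 largest called differences in each direction, the first 2 genes of each of 44 lists and its 3 called members of smallest adjusted p, and the agouti gene and Raly; names outside this rule were chosen after their values were seen. Some genes that the rule names are not reported here. The comparison and the lists were chosen with earlier results of these data known. The 14 alternatives covered background correction, scaling, the deposited table, filters, probe choice, the arrays fitted, the replicate number as a term and each 4-week array left out.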

Additional observations from a re-analysis of the deposited data

Results flagged for a closer look

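The strain difference of 51 described genes changed between 4 and 11 weeks by the test of the difference itself (limma interaction of strain and age, adjusted p under 0.05, beside 3.81% of all genes tested). Values are the KKAy minus C57BL/6J difference at 11 weeks minus that at 4 weeks, in log2 units. Many described genes were picked by their values at 4 weeks, so the counts below do not compare the ages.

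In 26 genes the difference had opposite signs at the 2 ages: Cxcl13 -3.24, Scd1 2.40, Fitm1 1.92, Cidec -4.16, Idi1 1.20, Apoa4 -2.98, Nr0b2 1.97, Sult2a2 -6.96, Ghr 1.04, A1bg -3.52, Cyp2b9 -4.50, Elovl3 2.29, Hsd3b5 4.87, Cyp2u1 1.76, Inmt 2.32, Derl3 4.01, Sdf2l1 2.34, Btg2 1.24, Noct 1.71, H2-Eb1 1.77, Ccl2 1.32, Ccr2 1.54, Car1 2.12, S100a8 1.65, Adipoq -2.52 and Car3 3.43. Not every one of these turned, since some differences were not called at 1 of the ages. Among such were Elovl3 (0.03), H2-Eb1 (0.03), Ccr2 (0.03) and Sult2a2 (-0.25) at 11 weeks and S100a8 (-0.07) at 4 weeks.

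In 16 genes it kept its sign and was smaller at 11 weeks: Cdh15 -1.47, Hk3 1.42, Tsku -1.08, Cyp1b1 -1.12, Cyp2c55 1.47, Hamp2 0.79, Irf7 1.68, Oasl2 1.13, Gbp2 1.49, H2-Ab1 1.77, H2-Aa 1.57, Cxcl9 1.97, Mpeg1 1.02, Tyrobp 0.91, Gzma 2.42 and Foxa3 -0.80.

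In 9 genes it kept its sign and was larger at 11 weeks: Got1 -1.21, Srebf1 0.88, Lpin1 -1.99, Cyp7a1 -1.91, Slco1a1 1.1, Igfbp2 -2.28, Apcs 1.53, Cxcl1 3.22 and Hnf4aos -2.53. Age goes with slide, and each strain difference was taken within a slide. Groups of 2 arrays allow no search for outlying arrays.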

How the results depend on the processing

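At 4 weeks 2626 genes were called, 1372 at least 2-fold, and 650 strain differences changed with age. The first count fell to 1504 without the filter on dim probes (27595 genes tested), to 1403 with the 4 arrays alone, which leave fewer arrays to estimate the spread and give no age term, and to 854 with the second brightest probe (5914 genes). The count at 2-fold was 725 with normexp background correction and 431 with the second brightest probe. The count changing with age was 324 with normexp, 413 with spike-in scaling, 142 without the filter and 135 with the second probe. Without any 1 array the counts were 1317 to 1465, 1037 to 1155 and 163 to 194. The causes of the normexp and spike-in changes were not tested. The other alternatives stayed within 1.5 times. Calls also made in the main setting kept their direction in every alternative, apart from 21 of 402 with the second probe. Of 150 described genes, 113 were called and 74 kept the call without each array in turn. Of their 1989 values under alternatives, 1741 kept direction and call, 223 lost the call, 22 gained it and 3 changed sign, each with the second probe: Slco1a1 to -0.031, Clec4g to -0.66 and Sox9 to 0.095; the causes were not tested. By the labels, same-numbered arrays share only a number, and the main fit holds no term for it. What else they share was not tested. Their deviations correlated at 0.53 to 0.68, and the replicate block gave 7474 called genes, 1556 at 2-fold and 5286 changing with age; list counts rose too, to 8 higher and 10 lower in lipogenesis and 3 and 6 in the respiratory chain. Among 44 lists, the 14 whose median lay at least 0.25 from that of all genes stayed on the same side of it under each scaling and normexp, and 12 others did not. Dim probes limit fold sizes to lower bounds.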

Other observations

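Several further gene families held called genes at 4 weeks, a few of whose members are also in the lists; the families were chosen after their values were seen, so their counts carry no test of the family. Of 6 measured Ces2 carboxylesterases, which cleave esters in the liver, 4 were called lower and none higher: Ces2b was at 0.60 and 0.95 in C57BL/6J and at -3.66 and -3.91 in KKAy (difference -4.56, SE 0.16), Ces2f differed by -2.70 (SE 0.17), Ces2c by -2.50 (SE 0.10) and Ces2a by -1.83 (SE 0.14), while Ces2g (-0.24) was not called, nor was Ces2e by its brightest probe (0.20), whose other probe gave -1.84. The 3 measured Serpinb1 protease inhibitor genes were called lower by close amounts, Serpinb1a at -2.38 (SE 0.12), Serpinb1b at -2.43 (SE 0.14) and Serpinb1c at -2.64 (SE 0.18). The paired immunoglobulin-like receptors Pilra (-2.94, SE 0.10), Pilrb1 (-2.73, SE 0.22) and Pilrb2 (-2.58, SE 0.10) were lower too. Members of these families are close copies, and their probes may not separate them. Of 9 measured Ms4a genes 6 were called lower, and of 6 Cd300 receptor genes, made by myeloid cells, 4 were, beside 8.99% of all genes.

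Of 6 measured pigment cell genes 3 were called higher in KKAy, beside 6.41% of all genes. Pmel, which forms the fibrils of the melanosome, was at -3.29 and -3.28 in C57BL/6J and at -0.81 and -0.85 in KKAy (difference 2.46, SE 0.11), the melanin enzyme gene Dct was higher by 2.48 (SE 0.41) and Slc45a2 by 0.73 (SE 0.14). The melanocyte regulators Mitf (-0.09, SE 0.23) and Kit (-0.06, SE 0.13) were not called. All 4 measured Xlr genes, X-linked and similar in sequence, were called higher, from Xlr3c at 1.25 (SE 0.13) to Xlr5a at 2.45 (SE 0.29).

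For 21 genes the brightest and the second brightest probe were called in opposite directions. The widest gaps were Pdxdc1, at -0.68 by the brightest probe and 10.49 by the second, Zfp945, at 1.56 and -7.95, and Zfp991, at 3.26 and -4.16. The cause was not tested.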
